A study of Homo sapiens with 8 samples.

Results

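The regions described here are 4827 H3K4me1 peaks of control MDA-MB-231 cells that lay at an end of a protein-coding gene and overlapped a peak of ARID1A knockout cells. They were chosen from the control peak list on chromosomes 1 to 22 and X. Each was under 10000 bases long, overlapped a knockout peak by at least 1 base, and had its midpoint within 1000 bases of either end of a RefSeq GRCh38.p14 protein-coding record. They are 4827 of the 57967 control peaks under that length that overlapped a knockout peak, and of 82994 control peaks in all. The knockout list held 73600 peaks. Because position in the control list and overlap with the knockout list chose these pairs, those properties are a description and not a finding.

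H3K4me1 was measured by ChIP-seq, chromatin immunoprecipitation followed by sequencing, in 8 samples forming 4 groups of 2. The groups were immunoprecipitate and input from control cells, and immunoprecipitate and input from cells labelled ARID1A knockout. Both genotypes were of MDA-MB-231, an established triple-negative breast cancer line. The sources used here do not say how the knockout was made or whether it was 1 clone. The deposited results were 1 peak list per genotype, so there is no spread between replicates, no p-value is given, and each difference describes these 2 lists. Intervals are exact 95% binomial intervals for shares and order-statistic 95% intervals for medians. They cover counting error over peaks only, and neighbouring peaks are not independent.

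Monomethylation of lysine 4 on histone H3 marks enhancers and the flanks of active genes. At an active start the mark typically lies on both sides, while the nucleosomes closest to the start carry the trimethylated form, so an H3K4me1 profile has a dip at the start. ARID1A is the large AT-rich DNA-binding subunit of the BAF form of the SWI/SNF remodelling complex, which moves nucleosomes at enhancers and promoters. The labels name an H3K4me1 antibody, whereas the protocol text calls the same antibody one against H3K4me3, and H3K4me1 is used throughout.

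The lists were not called alike. Control peaks were at least 312 bases long and at least 1249 bases apart, and knockout peaks at least 361 bases long and 1445 apart. A knockout peak could therefore join fragments across gaps that split control peaks. Width results are also given with the same merging distance of 1444 bases and the same shortest peak applied to both lists. That setting joins finished peaks and does not repeat the calling, so other differences in calling remain. The deposited pileup, a height of stacked fragments given once per peak, had a median of 13.6 over control peaks and 16.4 over knockout peaks. Read totals were not used, so depth is unknown. All 12 genes fixed as markers of MDA-MB-231 held a peak in both lists. So did 4 of 4 endothelial genes, and 3 of 5 immune genes had a peak in each list, so the presence of a peak does not separate cell types here.

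The starts at the centre of the comparison can be shown by 4 promoters, each running from 250 bases before to 50 bases after the start, taken from RefSeq (GRCh38.p14) and written 5′ to 3′ in the gene's direction. Capitals mark CG dinucleotides. RPL31 (chr2:101002039-101002338, plus strand) and RPSA (chr3:39406470-39406769, plus strand) encode ribosomal proteins, and their starts lay in a gap between control peaks but under 1 knockout peak. TREML2 (chr6:41201100-41201399, minus strand), a receptor gene of the TREM family, and FCGRT (chr19:49512411-49512710, plus strand), which encodes the neonatal Fc receptor, had starts under a control peak whose pileup was among the lowest in the knockout list relative to control. The promoters of RPL31 and RPSA hold 27 and 22 CG dinucleotides, and those of TREML2 and FCGRT hold 8 and 7.
RPL31: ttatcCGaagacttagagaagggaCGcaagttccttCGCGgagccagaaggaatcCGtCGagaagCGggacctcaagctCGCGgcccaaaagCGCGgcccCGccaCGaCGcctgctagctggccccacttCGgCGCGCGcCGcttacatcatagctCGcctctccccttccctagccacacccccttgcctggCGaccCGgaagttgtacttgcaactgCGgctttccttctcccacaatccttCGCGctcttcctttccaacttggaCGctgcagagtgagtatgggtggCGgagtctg
RPSA: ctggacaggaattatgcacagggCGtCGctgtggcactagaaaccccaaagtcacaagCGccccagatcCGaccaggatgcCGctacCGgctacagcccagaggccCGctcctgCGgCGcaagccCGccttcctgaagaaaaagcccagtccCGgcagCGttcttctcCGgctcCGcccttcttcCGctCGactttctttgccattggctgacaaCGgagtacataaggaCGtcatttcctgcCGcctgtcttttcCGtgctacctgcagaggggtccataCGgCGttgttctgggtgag
TREML2: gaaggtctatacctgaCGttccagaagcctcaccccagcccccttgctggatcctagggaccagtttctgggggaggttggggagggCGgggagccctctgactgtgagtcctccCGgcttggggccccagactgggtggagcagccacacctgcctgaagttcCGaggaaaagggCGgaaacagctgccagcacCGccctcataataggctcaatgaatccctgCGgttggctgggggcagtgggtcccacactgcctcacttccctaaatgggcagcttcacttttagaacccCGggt
FCGRT: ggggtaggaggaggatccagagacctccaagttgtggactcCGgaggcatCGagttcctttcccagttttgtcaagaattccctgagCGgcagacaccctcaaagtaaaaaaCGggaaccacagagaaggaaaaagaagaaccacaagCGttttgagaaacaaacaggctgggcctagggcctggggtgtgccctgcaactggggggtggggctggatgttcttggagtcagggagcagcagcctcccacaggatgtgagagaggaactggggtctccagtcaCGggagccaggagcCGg

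Most of these peaks lay at starts. Strand was known for 15812 of 19974 records, and 2884 of the 4827 peaks were nearest a start, 1010 were nearest the far end of a gene and 933 were nearest an end whose strand was not known. The window held ends of 5004 genes, and 495 peaks had ends of 2 or more genes within it. At the length limit, the peak at SYT2 (9975 bases in control, 9374 in knockout) was just inside and that at DEPP1 (10248 and 9864 bases) just outside. At the distance limit, a peak at FRMD6 was included at 1000 bases, and those at PLEKHM3 and ATE1 were left out at 1001 bases. A further 1248 of the 6075 control peaks under the length limit at gene ends had no knockout peak over them and are not described here.

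Width differed between the lists mainly in pairs where peaks were joined differently. The median width was 1194 bases for the control peaks and 2095 bases for their knockout partners, the partner being the knockout peak sharing most bases. The median ratio within pairs was far smaller, at 0.12 on the log2 scale (95% interval 0.09 to 0.14), with an upper quartile of 1.28. At least 1.5 times wider in knockout were 1655 pairs (34.3%, interval 32.9 to 35.6), against 26.6% of all shared pairs. With the same merging distance in both lists the share at gene ends was 22.3% and the median log2 ratio was −0.02, so the direction of the median turned. At least 1.5 times narrower were 688 (14.3%), against 18.2% of all shared pairs.

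The 2 kinds of pair behaved differently. In 3621 of the 4827 pairs a control peak met 1 knockout peak and no other peak was involved. These pairs had median widths of 1538 bases in control and 1471 in knockout. In 1153 pairs (23.9%, interval 22.7 to 25.1) the knockout peak overlapped 2 or more control peaks, against 11.2% of the other shared pairs. Counting 4 pairs with splits on both sides, these 1157 control peaks had a median width of 631 bases and their partners 3872. A peak that spans a gap is wider than either control peak beside it by construction. Against the summed width of all control peaks under the partner, the median log2 ratio of these pairs was 0.49 in place of 2.48, and 487 in place of 1122 were at least 1.5 times wider. The opposite case, a control peak over several knockout peaks, made up 49 pairs (1.02%), against 2.02% of the other shared pairs.

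**Figure D1:**
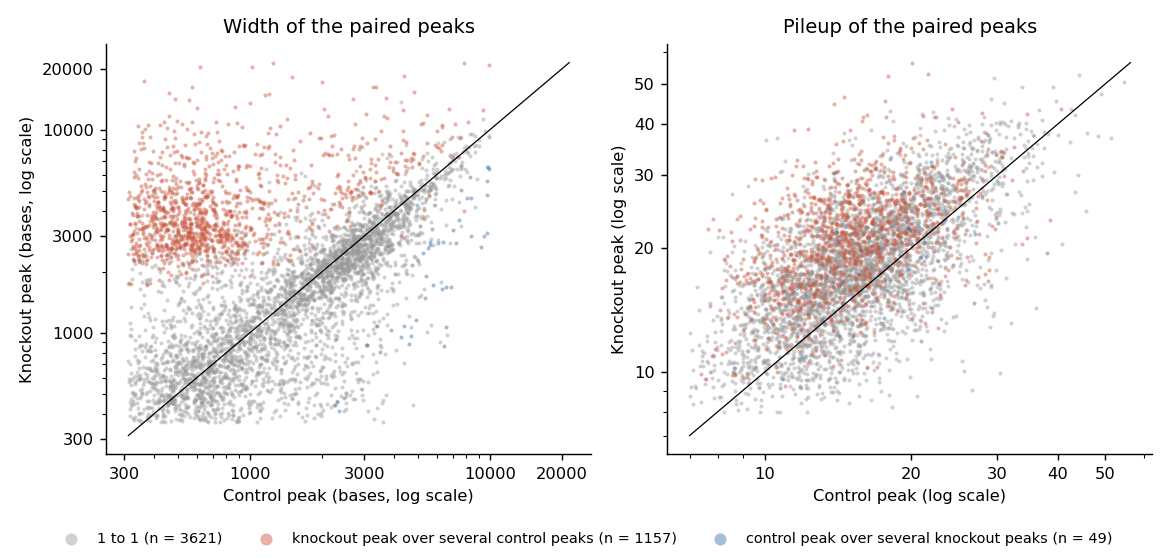
Width in bases (left) and pileup (right) of each of the 4827 control peaks (horizontal axes) and its knockout partner (vertical axes), on log scales, with the line of equal values. Grey pairs, 1 to 1, lie along the line in width, whereas the 1157 pairs whose knockout peak overlies several control peaks sit far above it, around 631 bases in control and 3872 in knockout.

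Starts and far ends differed in this. The control peaks nearest a start were narrow, with a median of 968 bases against 2161 for their partners, and 36.1% of pairs were at least 1.5 times wider in knockout. At far ends the medians were 1540 and 1936 bases and 28.3% were wider. The control peaks at starts were themselves of 2 kinds. The 1367 that covered the start had a median width of 2487 bases, and their partners 2328. The 1517 that lay beside the start had a median width of 598 bases, their partners had 1472, and 57.2% of these pairs were at least 1.5 times wider in knockout. A control peak chosen by its midpoint can lie beside the start only if it is under 2000 bases long, so this split selects narrow control peaks and the wider partners are a description.

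The knockout partner often reached over the start where the control peak stopped beside it. The control peak covered the start in 47.4% of the 2884 pairs and the knockout partner in 65.5% (1889 pairs). The partner alone covered it in 734 pairs and the control peak alone in 212. At far ends the order was the other way round, with 74.2% covered in control and 65.9% in knockout. When pairs were chosen from the knockout list instead, 69.6% of 3395 starts were covered by the knockout peak and 38.6% by the control partner, so the contrast was present with either list as the source of the peaks. At far ends chosen in that way the shares were 73.8% in knockout and 71.7% in control. All these shares come from the lists as deposited, without the same merging distance.

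The same contrast was present over all 15812 starts with known strand, whether or not a shared peak lay there. The base at the start lay under a control peak at 14.7% of genes and under a knockout peak at 24.2%. Coverage rose on either side to a maximum of 39.6% at 1800 bases into the gene in control and 40.8% at 1500 bases in knockout. Farther into the gene the order turned in the lists as deposited, and at 5000 bases 21.3% of genes were covered in control and 16.3% in knockout. At the far end the shares were 9.95% and 8.89%, and no dip was seen. In the plot of coverage by distance, the knockout profile therefore had a shallower dip at the start and a shorter shoulder inside the gene. With the same merging distance the shares at the start were 19.1% in control and 24.2% in knockout.

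**Figure D2:**
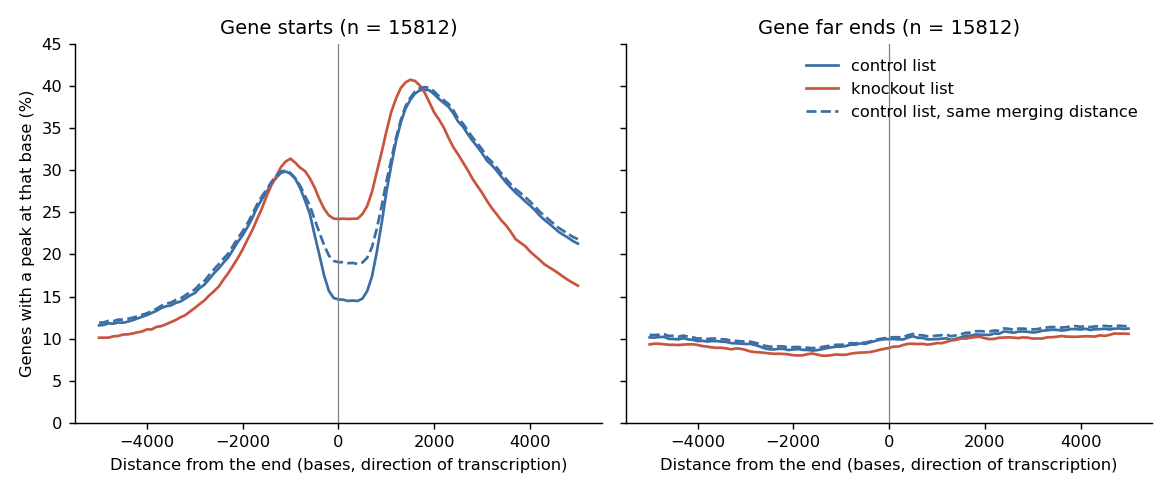
Percentage of 15812 protein-coding genes with a peak at each distance from the start (left) and from the far end (right), in bases along the direction of transcription, for the control list (blue), the knockout list (red) and the control list with the same merging distance as the knockout list (dashed). At the start 14.7% of genes were covered in control and 24.2% in knockout, and the far end has no such dip.

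The contrast at the start was also present among strong peaks. These settings used the lists as deposited, without the same merging distance. With only peaks at a deposited −log10 q of at least 5, 5.99% of starts were covered in control and 13.1% in knockout. In that setting the control list held 23884 peaks and the knockout list 27571. Coverage at 1500 bases into the gene was also higher in knockout, 25.8% against 17.4% in control. The order did not turn farther into the gene, and at 4000 bases 13.4% of genes were covered in control and 14.3% in knockout. With the 50000 peaks of highest −log10 q of each list, the shares were 11.7% and 21.5%. With only peaks at a deposited fold enrichment of at least 4 it was smaller, 3.36% and 4.31%. Start by start, 1736 were covered in both lists, 2092 in the knockout list only (13.2%), 582 in the control list only (3.68%) and 11402 in neither.

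Gaps between neighbouring peaks showed where the asymmetry lay. At 1294 starts (8.18%) the control list had a peak on each side, within 3000 bases, with the start uncovered between them, while 1 knockout peak reached over both edges of that gap. The reverse, a gap in knockout under 1 control peak, was found at 34 starts. Of the 1294 gaps, 748 were longer than the merging distance of 1444 bases, a length at which the knockout list could hold gaps. Whether differences in calling other than merging shortened or filled these gaps was not tested. With the same merging distance the counts were 713 and 111. With −log10 q of at least 5 they were 179 and 7, of which 89 and 7 had gaps longer than the merging distance. At 3729 starts both lists had flanking peaks with the start uncovered. Divergent genes can share a gap, which then counts once per start. Of the 1294 starts, 817 had a shared peak of the set described here.

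Over gaps of 1445 to 3000 bases, which either list could hold, a gap with a start in it was spanned by 1 knockout peak in 651 of 3588 cases (18.1%, interval 16.9 to 19.4). A knockout gap with a start in it was spanned by 1 control peak in 34 of 3192 cases (1.07%, interval 0.739 to 1.49). Away from starts the order was the opposite and the difference smaller. Gaps with no gene end gave 15.4% (interval 14.7 to 16.1) for control gaps and 18.3% (17.5 to 19.1) for knockout gaps. Gaps with a far end gave 13.1% of 168 (8.39 to 19.2) and 21.2% of 146 (14.9 to 28.8), and those intervals overlap. With the same merging distance the shares at starts were 18.1% and 3.16%, and 15.7% and 22.8% in gaps with no gene end. At starts, control gaps were thus spanned more often than knockout gaps, and in the other gaps less often. As deposited, the share for control gaps differed little between starts and gaps with no gene end (18.1% and 15.4%). For knockout gaps it differed widely (1.07% and 18.3%). This count was chosen after the data were seen and has no replicate check.

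**Figure D3:**
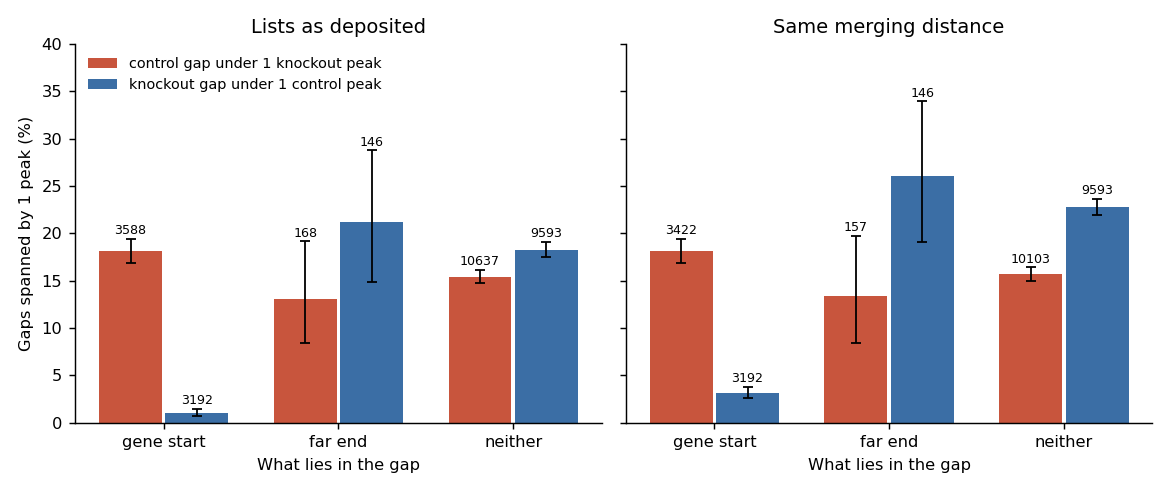
Percentage of gaps of 1445 to 3000 bases between neighbouring peaks of one list that lay under 1 peak of the other list, for gaps holding a gene start, a far end or neither, as deposited (left) and with the same merging distance (right). Bars start at 0, error bars are exact 95% binomial intervals and the count over each bar is the number of gaps. Knockout gaps at starts were spanned in 1.07% of cases, against 18.1% for control gaps.

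Named examples show the pattern on the scale of single genes. At PEA15, which encodes a phosphoprotein that binds ERK (start at chromosome 1, 160205384), control peaks of pileup 19.75 and 24.77 flanked a gap of 1505 bases, and 1 knockout peak of 5641 bases and pileup 25.43 lay over all of it. PRELID3B on chromosome 20 had flanking control peaks of pileup 29.39 and 27.89 and a knockout peak of 42.45. The start shared by the divergent genes OXLD1 and CCDC137 on chromosome 17 had flanks of 20.83 and 29.31 and a knockout peak of 25.61. These are the 3 strongest with a shared peak of the set, by the lowest −log10 q of the peaks involved. The gap was 1303 bases at PRELID3B and 1419 at OXLD1 and CCDC137. Knockout peaks were at least 1445 bases apart, so gaps that short could not appear in the knockout list. In the other direction, the start of MICALL1, which encodes a regulator of endosomal recycling, lay under a control peak of 4910 bases and pileup 38.05. The knockout list had peaks of pileup 26.08 and 19.45 there with a gap of 1765 bases. ZNHIT2 and CASP2, which encodes caspase-2, were the next strongest of this kind.

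**Figure D4:**
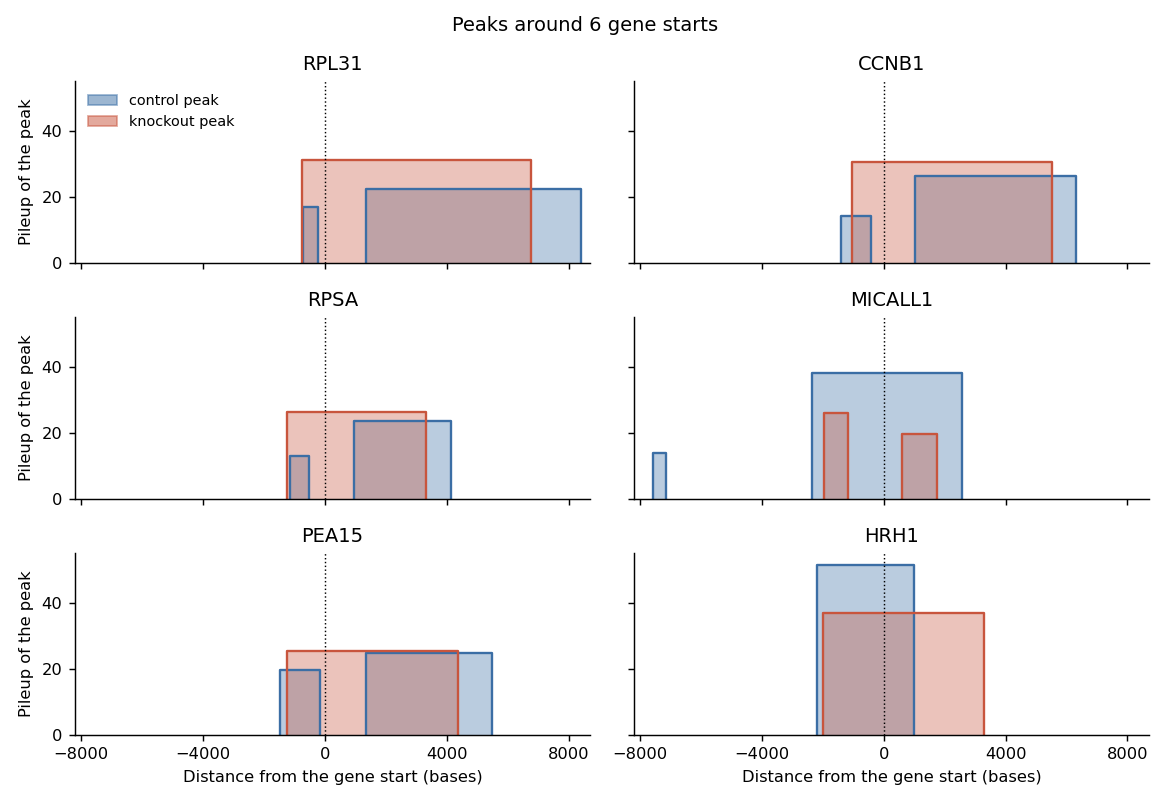
Peaks of the control list (blue) and the knockout list (red) around 6 gene starts, with distance from the start in bases along the direction of transcription on the horizontal axis and the pileup of each peak as its height. At RPL31, RPSA, PEA15 and CCNB1 the start (dotted) lies between control peaks and under 1 knockout peak, at MICALL1 the reverse holds, and at HRH1 it lies under a peak of each list.

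Starts that lay beside the control peak had more CG-rich promoters than starts under it. Over the 300 bases of the RefSeq promoter, the median number of CG dinucleotides was 21 at 1367 starts under the control peak, 26 at 1515 starts beside it, 26 at the 817 starts bridged in knockout, and 22 over all 15812 promoters. The letters GGGCGG, a match for SP family factors on either strand, were present in 62.0% of starts under the control peak, 70.0% beside it and 71.5% of bridged starts, against 58.5% of all promoters. TGANTCA, a match for AP-1 factors, was present in 8.12%, 4.29% and 3.55%, against 5.76% of all. TATAAA was present in 6.29%, 5.54% and 3.92%, against 9.64% of all. Of the promoters printed above, RPL31 with 27 lies above these medians, RPSA with 22 equals the median of all promoters, and TREML2 and FCGRT with 8 and 7 lie below them. A match of letters is a description and not a bound site. Some promoters lie away from the record start whose coverage was scored. At SOD2 on chromosome 6 that start was 159762281, and the promoter ran from 159727335 to 159727634.

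Pileup at gene ends as a whole moved with the rest of the list. The median was 15.3 in the control peaks and 18.6 in their partners. The median ratio was 1.20, and it was 1.19 over all shared pairs. Relative to all shared pairs the median was 0.02 on the log2 scale (95% interval 0.00300 to 0.0283). All pileup ratios below are divided by the median ratio of all shared pairs, which is called centred. Centred pileup was at least 1.5 times higher in knockout in 418 pairs (8.66%), against 8.38% of all shared pairs, and at least 1.5 times lower in 348 (7.21%), against 7.95%. Both shares were near the background.

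The count of pairs with higher pileup depended on which control peak was compared. Among the 1157 pairs whose knockout peak lay over several control peaks, 230 were higher and 37 lower against the paired control peak. Against the highest of the control peaks under the same knockout peak, 33 were higher and 71 lower. Among the 1 to 1 pairs 185 were higher and 304 lower. Calls were also more frequent among weak peaks, with 15.0% higher in the weakest 1207 pairs by −log10 q and 3.15% in the strongest 1207.

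The implied input background moved in the same direction as the pileup. The local input background implied by pileup and fold was 1.49 times the median ratio of all pairs in the 185 higher 1 to 1 pairs, 0.679 times it in the 304 lower pairs and 1.01 in the other 3132. That background is computed from the pileup, and both peaks of a pair had to be called over it. Part of any correlation between pileup and background therefore follows by construction. Across the 3621 pairs, which share their 2 lists, the log2 ratios of pileup and background had r = 0.61 and rho = 0.56. Whole chromosomes differed in this way. On chromosome 13, 36.6% of 71 pairs were higher and the median centred log2 ratio was 0.43, and over all shared pairs of that chromosome it was 0.42. On chromosome 22 none of 121 pairs was higher and the median was −0.21, as it was over all its shared pairs. On chromosome 3, 14.3% of 280 pairs were lower. The part of the input in these results was not tested, and a change of the mark and a change of the input cannot be told apart from these lists. With only the 2883 pairs whose background ratio was close to the median, as set in the alternatives, 5.62% were higher and 3.50% lower.

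Single genes with the highest and lowest centred pileup were taken from 1 to 1 pairs with a −log10 q of at least 5 in at least 1 list. The largest value was at the far end of EPAS1, which encodes the hypoxia factor HIF-2 alpha (chr2:46385446-46386992). Its pileup was 10.04 in control and 36.60 in knockout, 3.07 times after centring, with an input background ratio 1.76 times the median. At the far end of CYB561A3, a gene for a lysosomal cytochrome b561 (chr11:61347705-61348041), pileup was 10.61 and 37.02 and width 337 and 3294 bases. Its background ratio was 1.01 times the median. IL12RB1, which encodes an interleukin-12 receptor chain, had 8.56 and 27.01, the kinase gene CILK1 9.23 and 28.24, and DNAH14, a dynein heavy chain gene, 10.99 and 32.47. Background ratios at these 3 were 2.19, 2.13 and 1.41 times the median. CTHRC1, EXOC8 and CAP2 followed, at 2.39, 2.38 and 2.23 times after centring, with background ratios 1.83, 1.53 and 1.75 times the median.

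The lowest centred pileup was at the far end of LHFPL4 on chromosome 3, a gene for a synaptic organiser, with 30.36 in control and 9.91 in knockout. At TREML2 (chr6:41198739-41201988), whose promoter is printed above, pileup was 26.64 and 9.01. The peak there also fell from 3250 to 629 bases and no longer covered the start. At FCGRT (chr19:49511337-49512934) pileup was 35.99 and 14.30, while the width was 1598 and 1474 bases and both peaks covered the start. DSCAML1, which encodes a cell adhesion molecule of neurons, had 32.00 and 13.15, and NUP210, a nuclear pore gene, had 29.05 and 12.84. The promoter of NUP210 holds 42 CG dinucleotides, and the 155 promoters of lower 1 to 1 pairs had a median of 21, against 22 over all, so the low counts at TREML2 and FCGRT are not shared by the lower pairs as a whole. LOC124905352 had 25.61 and 10.03, SH3BP1 had 25.41 and 10.62, and the peak at GNGT2 and ABI3 had 20.58 and 8.73. Background ratios of these 8 lay between 0.371 (LHFPL4) and 0.684 (DSCAML1) times the median, so each of these decreases came with a lower implied input ratio.

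The widest gains among the same 1 to 1 pairs were at genes of several kinds. HSD17B7, which encodes an enzyme of cholesterol and steroid synthesis, had a control peak of 399 bases beside its start and a knockout peak of 5029 bases over it, with nearly equal centred pileup (0.03 on the log2 scale). The collagen gene COL12A1 had 400 and 3030 bases, and its start was covered in knockout only. At SOD2, which encodes the mitochondrial superoxide dismutase, the peaks had 566 and 4639 bases, and DCAF5 had 403 and 3813. MRPL55, a mitochondrial ribosomal protein gene, and the keratin gene KRT78 had 449 and 322 bases in control and 2677 and 1853 in knockout. In the other direction GPR132, a receptor gene of the G protein-coupled class, went from 3393 to 425 bases. MAB21L4 went from 6193 to 899, TRIM14 from 6608 to 979 and MPZL2 from 5709 to 1095. SUSD1 (3108 and 574 bases) and COPS4 (2613 and 496) became narrower while their centred pileup was 0.44 and 0.46 higher on the log2 scale.

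Among the same 1 to 1 pairs, only OXTR was among the 6 strongest peaks in both lists. Joined and split pairs were not ranked. By −log10 q the first in control was at the far end of the oxytocin receptor gene OXTR (chr3:8738511-8744389), with pileup 54.77 in control and 50.66 in knockout and widths of 5879 and 6744 bases. Of the other 5 strongest in control, 3 were at least 1.5 times lower after centring (HRH1, GGA1 and C6orf132). A ranking by control −log10 q favours peaks that are high in control, and a ranking by knockout −log10 q the reverse. The direction of ratios in either ranking is therefore a description and not a finding. The histamine receptor gene HRH1 had 51.36 and 36.95, GGA1 45.70 and 24.63, C6orf132 48.31 and 37.45, and the peak at CCR10 and CNTNAP1 49.08 and 47.41. HRCT1 had 43.31 and 42.11. In knockout the first was at the start of OTUB2, which encodes a deubiquitinase, with 33.68 in control and 49.12 in knockout. NUP93 (39.59 and 45.52), NDUFS8 (44.20 and 52.67) and ANXA13 (39.16 and 49.20) also stood there. MGAT5, which encodes a glycosyltransferase of branched glycans, had 18.34 and 40.73, which is 1.87 times higher after centring.

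Control peaks broken into the most knockout pieces were at LOC124903319, where 6590 bases met 3 knockout peaks, and at DYNLT4, NFKBIL1, PUS3 and EVI2A, with 2 each. Their control widths were 9965, 9852, 9768 and 9718 bases in that order. ARID1A itself had no shared peak at either end under the rule, and neither did ARID2. At its paralog ARID1B, the peak at the start had 1155 and 2488 bases and pileup of 16.55 and 19.43, which is −0.02 after centring. These peaks do not check the knockout label.

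Cytosolic ribosomal protein genes, the longest list, had most calls. Of 77 genes, 34 had 38 shared peaks at an end. Centred pileup was at least 1.5 times higher in 11 and lower in none, and 19 peaks were wider and 1 narrower. Over all shared pairs 8.38% were higher and 26.6% wider. Against the summed width of the control peaks under each partner, 7 of the 38 were wider and 3 narrower. Median pileup was 16.3 in control and 24.4 in knockout. Gaps at their starts were often bridged. Of 61 starts with known strand, 22 were covered in the knockout list only (36.1%, interval 24.2 to 49.4, against 13.2% of all starts), none in the control list only and 2 in both. At 18 of the 61 (29.5%, against 8.18% of all starts) 1 knockout peak lay over a control gap, and at none did the reverse hold. Covered in neither list were 37 of the 61 and 11402 of all 15812 starts. Covered in knockout only were also 3 of 8 epithelial starts (37.5%, interval 8.52 to 75.5) and 5 of 17 matrix and protease starts (29.4%). In the TGF-beta, YAP-TEAD, AP-1 and MAPK feedback lists no start was, of 21, 16, 11 and 9. The upper limits of those intervals were 16.1%, 20.6%, 28.5% and 33.6%, all above the 13.2% of all starts. The same merging distance was not applied to these counts by list.

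At RPL31 the control list had a peak of 518 bases and pileup 16.92 ending 217 bases before the start, and another of 7044 bases and pileup 22.29 beginning 1359 bases after it. In knockout a single peak of 7526 bases and pileup 31.19 covered both and the promoter printed above. At RPSA the control peaks had pileup 12.92 and 23.45, and the knockout peak had 26.33 over 4543 bases. RPL14 (344 and 8653 bases), RPS3A (468 and 4338), RPS14 (384 and 3562), RPL34 (443 and 4663), RPS24 (450 and 8278) and RPL22 (393 and 5753) showed the same arrangement. RPS23 was a 1 to 1 pair, with pileup of 13.99 and 30.58 and a background ratio 1.53 times the median. RPL32 was the lowest of the list, with 22.18 and 17.66.

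The pileup of these genes needs the same care as above. Of the 38 pairs, 17 had a knockout peak over several control peaks, and 9 of the 11 higher calls were among them. Against the highest control peak under each knockout peak, 4 of 38 were higher, none was lower, and the median centred log2 ratio was 0.08 in place of 0.27. Among the 21 pairs that were 1 to 1, 2 were higher and the median was 0.01. Input background ratios in the 38 pairs had a median 1.12 times that of all pairs, and their part was not tested.

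**Figure D5:**
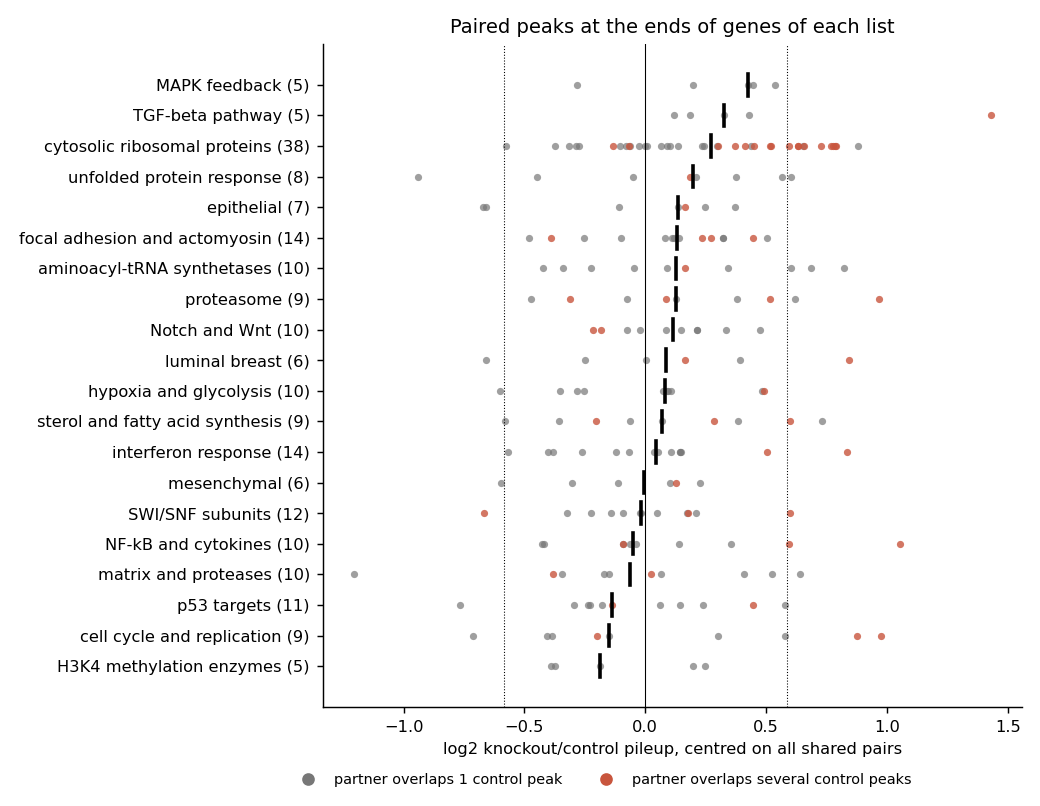
Centred log2 ratio of pileup, knockout over control, for each shared peak at the ends of genes of the lists with 5 or more such peaks (number in brackets). Points are peaks, grey where the partner overlaps 1 control peak and red where it overlaps several, black bars are medians and dotted lines mark 1.5 times. The 11 higher calls of the ribosomal protein genes are mostly red, and most other lists lie around 0.

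Other lists gave few calls, to be read against 8.38% higher, 7.95% lower and 26.6% wider over all shared pairs. A single call among 9 to 14 peaks is near that background. Aminoacyl-tRNA synthetase genes, which encode the enzymes that charge transfer RNAs, had 3 of 10 peaks higher and none lower. These were 2 peaks at MARS1 (13.88 and 29.18, and 12.07 and 21.81) and 1 at EPRS1 (12.29 and 23.51), all of them 1 to 1, while 4 of the 10 were narrower. Proteasome genes had 2 of 9 higher, with PSMD8 at 12.79 and 29.73, but another control peak under the same knockout peak had 19.90. Against the highest control peak under each partner 1 of the 9 was higher and 1 lower. Sterol and fatty acid synthesis genes had 2 of 9 higher and 6 wider. MVK, which encodes mevalonate kinase, had pileup of 14.83 and 26.71 with its start bridged. Another control peak there had 18.23, and against it the centred log2 ratio was 0.30, under the threshold. Cell cycle and replication genes had 2 of 9 higher, CDC6, a replication licensing factor (12.72 and 29.76), and CCNB1, cyclin B1 (13.99 and 30.54). In both, the start was bridged and another control peak under the same knockout peak had 28.45 and 26.22. CCNE2, cyclin E2, was lower (22.98 and 16.65).

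Signalling and matrix lists were mixed. In the TGF-beta list 1 of 5 peaks was higher, LTBP2, which encodes a latent TGF-beta binding protein family member, with 14.55 and 46.55, but a neighbouring control peak under the same knockout peak had 39.59. In the NF-kB and cytokine list 2 of 10 were higher and none lower, and against the highest control peak under the partner none was higher. Here the chemokine gene CXCL2 had 10.07 and 24.87, in a knockout peak of 21436 bases over 4 control peaks, the highest of which had 22.54. Interferon response genes had 1 of 14 higher, which is no more than the background, BST2, the antiviral tetherin (12.53 and 26.54). In the matrix and protease list, COL13A1, a transmembrane collagen gene, was lower (16.55 and 8.54) although its peak went from 442 to 2563 bases. Its background ratio was 0.450 times the median. ATF4, a transcription factor of the stress response, was the lowest of the unfolded protein response list (20.84 and 12.89, background ratio 0.497). SWI/SNF subunit genes had 1 of 12 higher (SS18L1), 1 lower (DPF3, at its start) and 6 wider, with a median centred log2 ratio of −0.02. Against the highest control peak under the partner SS18L1 was at 0.23 and none of the 12 was higher, and 4 were wider than the summed control peaks. The 5 peaks at H3K4 methylation enzyme genes had no call in pileup and 1 was wider. Other cell type markers, immune or endothelial and fibroblast, had 7 peaks between them with no higher call and 2 lower ones, CD4 (12.29 and 9.15) and CDH5 (23.41 and 17.99).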

How the data were processed

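ChIP-seq for H3K4me1 was analysed in control and ARID1A knockout MDA-MB-231 cells. The build and tools named are hg38, Bowtie2 2.3.5.1 and MACS2 2.2.6, per the submitters' processing notes. The sources used here give neither their settings nor how the 2 replicates entered a call. The authors deposited 1 list for each genotype. Per the file headers, the deposited lists hold a pileup signal, a fold enrichment ratio, and the −log10 of a q value. These values are the authors'. Within each list −log10 q and fold served to rank and filter, with the same cut-offs in both lists. Fold also entered the implied background given below.

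Computed here, with Python 3.11.15, numpy 2.4.6, pandas 2.3.3 and scipy 1.17.1, were overlaps of at least 1 base, ratios of knockout over control, and the implied background, (pileup + 1) / fold − 1, which assumes a pseudocount of 1. Starts and far ends come from RefSeq records and the strand of its promoter table, and RefSeq sequences were matched by symbol. Pairing was tested on simulated lists.

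Members and gene lists were chosen with earlier results of these data known. All 617 genes of 25 lists matched a symbol. Genes were named by this rule: among 1 to 1 pairs with −log10 q of at least 5 in at least 1 list, the 8 highest and 8 lowest ratios of pileup and of width and the 6 highest −log10 q per list, skipping neighbours within 50000 bases, the 5 peaks in most pieces, ARID1A and its paralogs, and up to 2 members per direction of each gene list. For length, some members of the lists are not named, a few genes are not reported here, and bridged starts and ribosomal examples were chosen after their values were seen.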

Additional observations from a re-analysis of the deposited data

How the results depend on the processing

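No paired analysis was possible because the deposited lists carry no replicate, and leaving out a replicate could not be run for the same reason. Of the set size, 4827, 1016 pairs were left with −log10 q of at least 5 in both lists, 10693 came within 2000 bases of an end and 2883 had a background ratio close to the median (limited background below, from 0.8 times the median to its reciprocal). The median log2 width ratio (0.12) turned to −0.0535 in 1 to 1 pairs and −0.0242 with the same merging distance, and was 0.0185 at −log10 q of at least 5, 0.0386 for pairs chosen from the knockout list, 0.0433 with joined groups of peaks and 0.0825 with the midpoint of the joined pair. The median centred log2 pileup ratio (0.02) turned to −0.0127 in 1 to 1 pairs (centred on such pairs), −0.0298 at −log10 q of at least 5 and −0.00103 with the joint midpoint. Against the highest control peak under the same knockout peak it was −0.0410 over all pairs and, in pairs with several control peaks, −0.0531 in place of 0.21. In the same order of settings, 1 to 1, q, knockout list, same merging, joined groups and joint midpoint, the share wider was 14.7%, 24.7%, 29.5%, 22.3%, 20.9% and 32.2%. The share narrower was 17.7% for 1 to 1, 10.3% for q, 18.6% for the knockout list, 18.1% for same merging and 12.7% for limited background. The share with higher pileup was 5.72% for 1 to 1, 2.46% for q, 7.86% for 2000 bases, 5.57% for the knockout list, 6.78% for same merging, 5.62% for limited background, 5.45% for joined groups and 5.65% for the joint midpoint. The share with lower pileup was 4.82% for q, 6.25% for 2000 bases and 3.50% for limited background. The data had been seen when joined groups, the highest control peak, the joint midpoint and all settings for counts of starts and gaps were chosen. The cause of these shifts was not tested, except that the 1 to 1 setting leaves out the bridged pairs by construction. Depth is unknown, and weak peaks near the threshold are less certain than strong ones.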
